A study of Mus musculus with 8 samples.

Results

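Blood progenitors stay in the bone marrow, leave it and return to it through surface receptors for chemokines, selectins and matrix. The set described here holds 9 such receptor genes, namely the chemokine receptors Cxcr4, Cxcr2, Ccr2 and Cx3cr1, the selectin ligand Selplg, the integrin subunits Itga4, Itga5 and Itgb1, and the hyaluronan receptor Cd44. Its members are all non-control probes that the array design names for these genes, 16 probes of 55681 on the array and 9 gene names of 34797. RNA of common myeloid progenitors (CMPs), the marrow cells from which myeloid cells descend, was measured on 8 Agilent mouse arrays with 1 dye, 4 from young mice (young 3 to young 6) and 4 from old mice (old 2 to old 5). All mice were wildtype, untreated C57BL/6J, and the CMPs were sorted by flow cytometry as Lin-, cKit+, Sca-1-, CD34+ and FcγR low. The sample labels give ages of 2 to 3 months for the young and 22 to 24 months for the old mice, whereas the description of the series has 3 to 4 and 22 to 26 months. The study used mice of both sexes and gives 3 mice per age for this experiment without naming the arrays, so all 8 arrays were kept. The study states that the CMPs of these mice were analysed individually, but with 4 arrays per age the arrays could not be matched to mice, and the p-values below measure the spread between these arrays, which may in part be technical.

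Cxcr4 binds Cxcl12, which marrow stroma releases, and holds stem and progenitor cells in the marrow, while Cxcr2 draws neutrophils out of it and Ccr2 does the same for inflammatory monocytes. Integrins bind Vcam1 and fibronectin as pairs of an alpha and a beta subunit, Selplg (PSGL-1) lets cells roll on selectins, and Cd44 binds hyaluronan. In aged mice, stem and progenitor cells are known to home to the marrow less well after transplantation.

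Values are given as log2 intensity minus the 75th percentile of the same array, so a value of 0 is the 75th percentile of the non-control spots and a step of 1 is a doubling. They are compared between arrays and not between probes, since probes differ in brightness. The 75th percentile lay between 289.7 and 565 intensity units, and between 56.2% and 63.7% of the spots were well above background. The gate genes Kit, Cd34, Fcgr3 and Fcgr2b were well above background on all 8 arrays, and their summed intensity, in units of the 75th percentile, ranged from 105 to 135 in young and from 91.6 to 118 in old CMPs. A list of 9 genes held those for lineage antigens and Sca-1, which the gate excludes, and Flt3 and Il7r, which it does not name. Of these, 5 passed the filter on background, among them Itgam and Cd4, both for antigens of the lineage depletion. Itgam was at 4.55 to 5.14 in young and 4.52 to 5.44 in old CMPs, and Cd4 at 2.13 to 2.96 and 2.01 to 2.55. Young 3, young 4, old 2 and old 4 shared slide 1, and the other 4 arrays shared slide 2, so each slide held both ages.

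All 16 probes of the set were bright enough to be tested, 15 of them well above background on all 8 arrays and the remaining probe, of Cd44, on 7. A call needed a probe with a fold change of at least 1.5 and, after adjustment, a p below 0.05. By limma with Benjamini-Hochberg adjustment over 33472 tested probes, 0 of the 9 genes were called, and the background was 0.191% of all tested probes and 0.25% of all tested genes. At an unadjusted p under 0.05, 4 of the 16 probes passed, 1 higher in old CMPs (Cxcr2) and 3 lower (Ccr2, Itga4 and Selplg), where 6.34% of all tested probes passed. Young and old arrays did not overlap at 3 of the 16 probes, those of Ccr2, Itga4 and Selplg, against 4.44% of all tested probes. The methods' t-test, which the study names for 2 unpaired groups, called 2 of the 9 genes without adjustment, Cxcr2 and Ccr2, where it called 4.1% of the 23155 tested genes, and 0 after it. At the brightest probe of each gene, the mean was lower in old CMPs for 6 genes and higher for 3, with a median log2 difference of -0.16, beside -0.01 over the 23155 tested genes. In bulk RNA, fewer cells that carry a transcript and less of it per cell cannot be told apart.

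**Figure D1:**
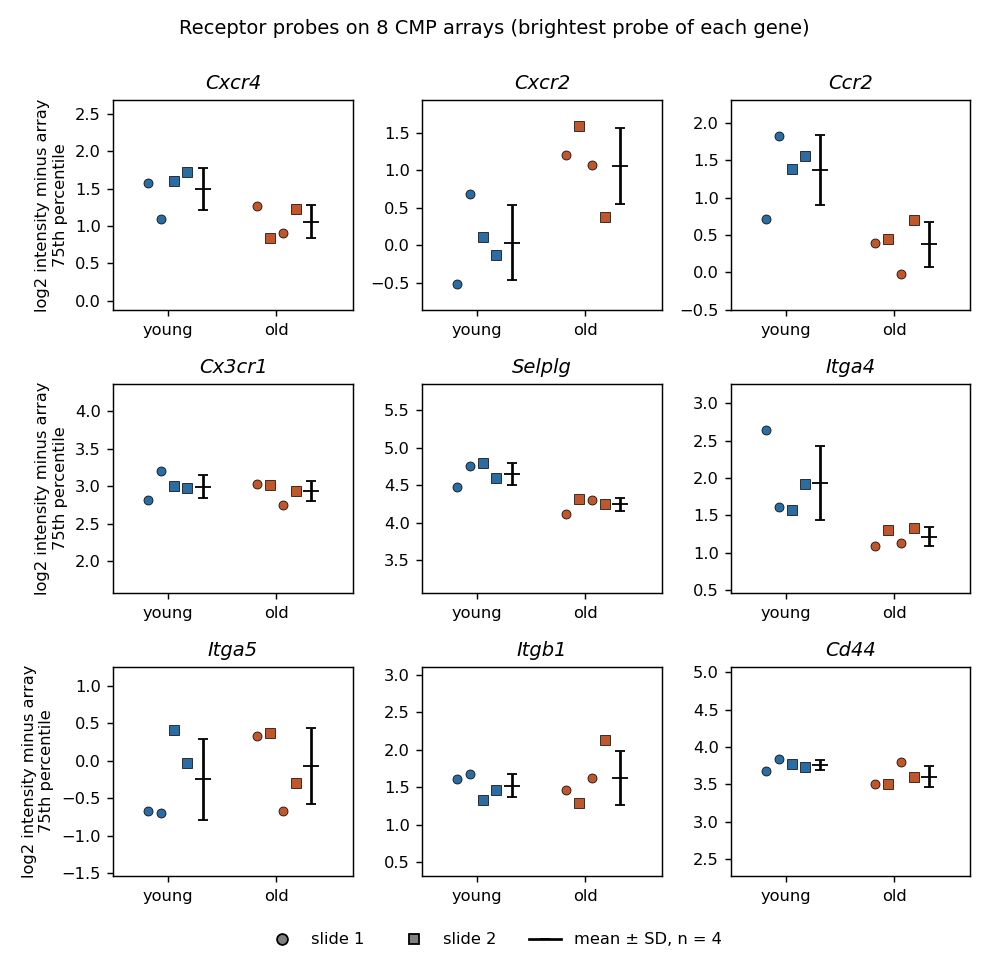
Values of the brightest probe of each receptor gene on the 8 arrays (y axis, log2 intensity minus the 75th percentile of the array, every panel spanning the same number of log2 units), with circles for slide 1, squares for slide 2 and the mean ± SD of 4 arrays beside them. The ages do not overlap for Ccr2, Selplg and Itga4, and they overlap for the other 6 genes, Cxcr2 through old 5 at 0.38 and young 4 at 0.68.

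Ccr2, the receptor for Ccl2 on inflammatory monocytes and their progenitors, had the lowest p of the set. Its probe A_51_P245989 (mm9, chr9:124022948-124023007, plus strand) read 0.71, 1.82, 1.38 and 1.55 on young 3 to young 6. On old 2 to old 5 it read 0.39, 0.45, -0.02 and 0.70. Every old array lay below every young array, although young 3 exceeded old 5 by little. Young CMPs had a mean of 1.37 ± 0.47 (SD, n = 4) and old CMPs one of 0.38 ± 0.30 (SD, n = 4), a log2 difference of -0.99 with a standard error of 0.26, or 1.98-fold. The 95% interval ran from -1.58 to -0.40, and p was 0.0041 by limma, or 0.282 after adjustment. An exact permutation test over the 70 assignments of 4 and 4 arrays gave a two-sided p of 0.0286, the smallest this design allows. Within slide 1 the log2 difference was -1.09 and within slide 2 it was -0.89.

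Other monocyte genes also had lower means in old CMPs. In a list of 15 monocyte and macrophage genes that holds Ccr2 and Cx3cr1, 14 were on the array and tested, 13 had a lower mean in old CMPs, 9 had an unadjusted p under 0.05 in that direction, and 0 were called by limma. Without Ccr2 and Cx3cr1, the summed intensity of the other 12 genes, in units of the 75th percentile, was 189.7 to 217 on the young and 86.2 to 139 on the old arrays, a ratio of means of 0.563. All of these genes were above background on at least some arrays. Csf1r, the receptor for macrophage colony-stimulating factor, had means of 6.35 and 5.79 in young and old CMPs, a log2 difference of -0.57 (limma adjusted p = 0.448), and Ly6c1, for a surface antigen of monocytes, differed by -1.52 (limma adjusted p = 0.220). The part of these cells in the value of Ccr2 was not tested.

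Cx3cr1, the receptor for membrane-bound Cx3cl1 that marks monocytes and dendritic cell precursors, is in the same monocyte list and had nearly the same mean at both ages. Its brightest probe, A_55_P2007964, read 2.81, 3.20, 3.00 and 2.97 on young 3 to young 6 and 3.02, 3.02, 2.74 and 2.94 on old 2 to old 5. The values of both ages were interleaved. The log2 difference was -0.06 with a 95% interval from -0.44 to 0.31 (limma adjusted p = 0.998). This interval does not reach the estimate for Ccr2, -0.99, but it overlaps the Ccr2 interval of -1.58 to -0.40. No test compared Cx3cr1 with Ccr2. At the second probe, A_52_P99810, the log2 difference was -0.09 with an interval from -0.61 to 0.43. Both estimates turned slightly positive when arrays were shifted to their median.

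Cxcr2, a receptor for Cxcl1, Cxcl2 and Ppbp on neutrophils and their precursors, was the member with the largest positive difference between old and young CMPs. Probe A_52_P559975 (mm9, chr1:74206886-74206945, plus strand) read -0.52, 0.68, 0.11 and -0.13 on young 3 to young 6. On old 2 to old 5 it read 1.20, 1.59, 1.07 and 0.38. The old arrays 2, 3 and 4 were above all young arrays, and old 5 fell below young 4. Young CMPs had a mean of 0.04 ± 0.50 (SD, n = 4) and old CMPs one of 1.06 ± 0.51 (SD, n = 4), a log2 difference of 1.02 with a standard error of 0.32, or 2.03-fold. The 95% interval ran from 0.32 to 1.73, with p = 0.0092 and an adjusted p of 0.403 by limma and a two-sided exact permutation p of 0.0571. Within slide 1 the log2 difference was 1.06 and within slide 2 it was 0.99.

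Most genes of a neutrophil list did not share the direction of Cxcr2. Of 12 listed genes, Cxcr2 included, 8 were tested and 6 of them had a lower mean in old CMPs. Without Cxcr2, the summed intensity of the other 11 genes, in units of the 75th percentile, was 3.07 to 5.14 on the young and 1.90 to 4.35 on the old arrays, a ratio of means of 0.794. Mmp9 and Retnlg, genes of mature neutrophils, were not well above background on any array, and S100a8 had means of -1.39 and -1.89 in young and old CMPs (limma adjusted p = 0.998). Cxcr1, a receptor of neutrophils that is close to Cxcr2 and was not in this list, is named after its values were seen. It lay between -3.88 and -3.22 on the young and between -2.68 and -2.34 on the old arrays, a log2 difference of 1.01 ± 0.20 (SE; limma adjusted p = 0.126) in the direction of Cxcr2. Cxcr2 was also measured beside a megakaryocyte list, the marker list with the largest difference between the ages. All 14 megakaryocyte genes had a higher mean in old CMPs with an unadjusted p under 0.05, 12 of them without overlap of the ages, and Gp9, a subunit of the platelet receptor for von Willebrand factor, was called (log2 difference 1.21, limma adjusted p = 0.0327). Their summed intensity ranged from 99.2 to 197 on the young and from 287 to 381 on the old arrays, a ratio of means of 2.27. The sums of other lists separated the ages as well. Mast cells and basophils had 30.4 to 41.2 on the young and 43.7 to 60.1 on the old arrays, with Fcer1a called. Of their 9 tested genes, 7 had a higher and 2 a lower mean in old CMPs. Gata2 was brightest there on every array but young 3, and its ages overlapped (log2 values 3.59 to 4.45 and 4.29 to 5.29). Haematopoietic stem cells had 15.6 to 20.3 and 22.9 to 27.2, with Hoxb5 called, but 4 tested genes had a lower and 5 a higher mean in old CMPs. Their brightest gene on every array was Meis1 (log2 values 3.47 to 3.92 and 4.17 to 4.49). Stroma and endothelium had 38.4 to 54.2 and 54.3 to 78.5, with no gene called. Vwf, shared with the megakaryocyte list, was brightest there on every old array (3.25 to 4.23 and 4.82 to 5.22), while Kdr and Lepr overlapped. The separation of the stem cell sum thus rests largely on Meis1 and that of the stroma sum on Vwf, and that of the mast cell sum rests in part on Gata2. The part of the cells that these lists mark in the values of the 9 receptor genes was not tested.

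**Figure D2:**
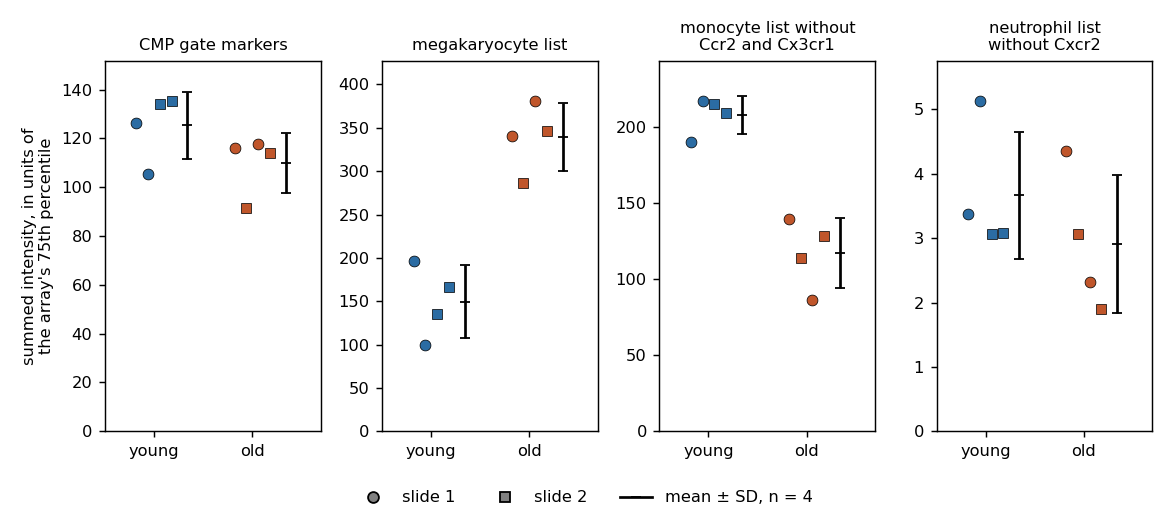
Summed intensity of 4 marker lists on each array (y axis, in units of the 75th percentile of the array, from 0), with circles for slide 1, squares for slide 2 and the mean ± SD of 4 arrays. The megakaryocyte list lies between 287 and 381 on the old arrays, above all young arrays, the monocyte list without Ccr2 and Cx3cr1 lies between 86.2 and 139, below all young arrays, and the other 2 lists overlap.

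Cxcr4, the receptor that retains progenitors in the marrow, had a lower mean in old CMPs with overlap between the ages. Probe A_52_P585124 (mm9, chr1:130485079-130485138, minus strand) read 1.58, 1.09, 1.60 and 1.72 on young 3 to young 6. On old 2 to old 5 it read 1.26, 0.84, 0.91 and 1.23. Young 4 was the low array among the young and lay below old 2 and old 5, while the other 3 young arrays were above all old arrays. The log2 difference was -0.44 (95% interval -0.89 to 0.01), with p = 0.055 and an adjusted p of 0.809 by limma and a two-sided exact permutation p of 0.0857. It was -0.25 within slide 1 and -0.63 within slide 2.

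**Figure D3:**
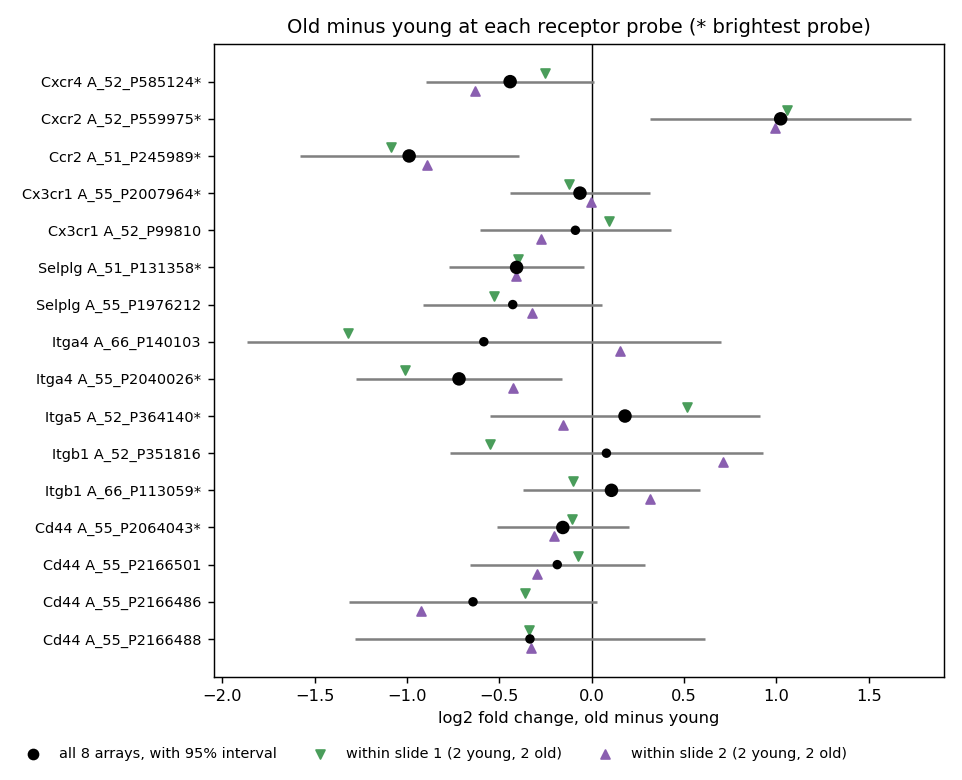
Log2 fold change of old over young CMPs (x axis) at each of the 16 receptor probes (y axis, gene and probe), with the 95% interval from limma over 8 arrays and the differences within slide 1 and slide 2, each of 2 young and 2 old arrays. Ccr2, both Selplg probes, Cxcr4, the brightest Itga4 and Cx3cr1 probes and all 4 Cd44 probes lie below 0 on both slides, and Cxcr2 lies above 0 on both.

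Selplg encodes PSGL-1, the ligand on leukocytes and progenitors for the selectins of vessels and platelets. Its brightest probe, A_51_P131358, has 60 bases but an annotated position of only 28 (mm9, chr5:114267807-114267834, minus strand). This probe read 4.47, 4.75, 4.80 and 4.59 on young 3 to young 6. On old 2 to old 5 it read 4.12, 4.31, 4.30 and 4.26. The 4 old arrays lay below the 4 young arrays within a narrow range. Young CMPs had a mean of 4.65 ± 0.15 (SD, n = 4) and old CMPs one of 4.25 ± 0.09 (SD, n = 4), a log2 difference of -0.41 with a 95% interval from -0.77 to -0.04, or 1.33-fold. Limma gave p = 0.032 and an adjusted p of 0.678, and the two-sided exact permutation p was 0.0286. The second probe, A_55_P1976212, differed by -0.43 on the log2 scale (interval -0.91 to 0.06), with values of 2.44 to 3.06 on the young and 2.10 to 2.66 on the old arrays, which overlap. Within the slides, the difference at the brightest probe was -0.40 and -0.41. The fold at both probes is below the minimum of 1.5 set for a call.

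Itga4 encodes the integrin alpha 4 subunit, which binds Vcam1 and fibronectin when paired with Itgb1. Its brightest probe, A_55_P2040026 (mm9, chr2:79173193-79173252, plus strand), read 2.64, 1.61, 1.57 and 1.92 on young 3 to young 6. On old 2 to old 5 it read 1.09, 1.31, 1.14 and 1.34. The ages did not overlap, and young 3 stood above the other young arrays. Young CMPs had a mean of 1.94 ± 0.49 (SD, n = 4) and old CMPs one of 1.22 ± 0.12 (SD, n = 4), a log2 difference of -0.72 with a 95% interval from -1.27 to -0.16, or 1.64-fold. Limma gave p = 0.017 and an adjusted p of 0.522, and the two-sided exact permutation p was 0.0286. The difference was -1.01 within slide 1, which holds young 3, and -0.42 within slide 2.

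The second Itga4 probe, A_66_P140103, did not share this order. Its 60 bases are placed over 1131 bases of the genome (mm9, chr2:79153985-79155115, plus strand), so that it crosses an intron and reads spliced transcripts about 18672 bases upstream of the first probe. It read -1.34, -1.97, -2.91 and -3.20 on young 3 to young 6 and -4.13, -3.65, -1.82 and -2.16 on old 2 to old 5. Old 4 and old 5 reached the young range here. The log2 difference was -0.58 with an interval from -1.87 to 0.70, and it was -1.32 within slide 1 and 0.15 within slide 2.

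Itgb1, the beta 1 subunit that pairs with both alpha subunits of the set, and Itga5, the alpha subunit of the fibronectin receptor, had no difference beyond the spread between arrays. The brightest Itgb1 probe, A_66_P113059, whose 60 bases span 5896 bases of the genome, read 1.62, 1.67, 1.33 and 1.46 on young 3 to young 6 and 1.47, 1.29, 1.63 and 2.13 on old 2 to old 5. Old 5 alone was above the young range, and the log2 difference was 0.11 (interval -0.37 to 0.59, limma adjusted p = 0.998) with all arrays and -0.06 without old 5. Probe A_52_P351816 of Itgb1 differed by 0.08 with an interval from -0.77 to 0.93, and its difference was -0.55 within slide 1 and 0.71 within slide 2. The Itga5 probe, A_52_P364140, read -0.68, -0.70, 0.41 and -0.03 on young 3 to young 6 and 0.33, 0.37, -0.67 and -0.30 on old 2 to old 5. High and low arrays occurred at both ages, the log2 difference was 0.18 (interval -0.55 to 0.91, limma adjusted p = 0.998), and it was 0.52 within slide 1 and -0.16 within slide 2. These intervals leave room for a higher value of over 1.5-fold for Itga5 and for a difference of that size in either direction at the second Itgb1 probe.

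Cd44 was read by 4 probes, each with a lower mean in old CMPs and each with overlap between the ages. The brightest, A_55_P2064043, read 3.68, 3.84, 3.78 and 3.74 on young 3 to young 6. On old 2 to old 5 it read 3.50, 3.51, 3.81 and 3.59. Old 4 lay within the young range, and the other 3 old arrays lay just below it. The log2 difference was -0.16 with an interval from -0.51 to 0.20 (limma adjusted p = 0.998), and the interval does not reach below -0.51. At A_55_P2166501, the difference was -0.19 (interval -0.66 to 0.29).

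The 2 dim Cd44 probes lie 21247 and 26573 bases upstream of the brightest one. Cd44 is known to have alternatively spliced exons that most blood cells skip, but these probes were not matched to exons here. A_55_P2166486 had means of -3.59 in young and -4.23 in old CMPs, a log2 difference of -0.64 (interval -1.32 to 0.03, two-sided exact permutation p = 0.143). It was the probe that failed to be well above background on 1 old array. A_55_P2166488 read -3.34, -3.41, -3.60 and -3.36 on young 3 to young 6 and -4.83, -4.33, -2.60 and -3.28 on old 2 to old 5, so that the old arrays lay on both sides of the young ones. Its log2 difference was -0.33 with an interval from -1.28 to 0.62. With normexp background correction, the log2 difference was -0.10 at A_55_P2166486 and 0.0009 at A_55_P2166488.

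The sequences of the probes with these unequal readings are shown for reference. The 4 probes that lie upstream in Itga4, Itgb1 and Cd44 and the Cd44 probe nearer to the end of the transcript are given in the direction of the transcript, with no part marked.
Itga4 A_66_P140103: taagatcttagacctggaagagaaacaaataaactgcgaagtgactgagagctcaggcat
Itgb1 A_52_P351816: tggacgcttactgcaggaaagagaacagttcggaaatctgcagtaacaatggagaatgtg
Cd44 A_55_P2166486: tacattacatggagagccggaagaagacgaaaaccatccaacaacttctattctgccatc
Cd44 A_55_P2166488: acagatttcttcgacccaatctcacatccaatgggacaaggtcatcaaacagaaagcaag
Cd44 A_55_P2166501: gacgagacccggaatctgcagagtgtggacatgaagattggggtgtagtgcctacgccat
The files place the Itgb1 probe at chr8:131246349-131246408 on the plus strand of mm9, and the Cd44 probes at chr2:102672645-102672704, chr2:102677971-102678030 and chr2:102654278-102654337 on the minus strand, in the order A_55_P2166486, A_55_P2166488 and A_55_P2166501. Exon and untranslated regions of mm9 were not used here.

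Upstream and downstream probes of the same gene did not keep a constant distance over the arrays. When the downstream probe was subtracted and the median over the 8 arrays was set to 0, the upstream Itga4 probe was at 1.27 on old 4 and at -0.99 on old 2. The upstream Itgb1 probe was at 0.60 on old 4 and -0.59 on old 2, and the Cd44 probe A_55_P2166488 was at 0.76 and -1.16. In these 3 genes, old 4 was high and old 2 was low. Selplg and Cx3cr1, whose probes lie 1415 and 1207 bases apart, did not follow this order, with old 4 at -0.36 and -0.15. The median over 3870 other genes with tested probes at least 1000 bases apart was 0.10 on old 4 and -0.13 on old 2, the highest and the lowest of the 8 arrays. On young 6 this median was -0.03, whereas Itga4 (-0.89) and Itgb1 (-0.64, its lowest array) were low and Cd44 A_55_P2166488 was at 0.08. The part of RNA quality or labelling in these values was not tested. At the upstream Itga4 probe, the arrays differed among themselves at both ages, from -3.20 to -1.34 in young and from -4.13 to -1.82 in old CMPs. The same held for the upstream Itgb1 probe, with -0.81 to 0.52 in young and -0.74 to 0.61 in old CMPs. At the upstream Cd44 probes, the old arrays differed more among themselves than the young ones. The differences between the ages at these probes rest on such unequal arrays.

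**Figure D4:**
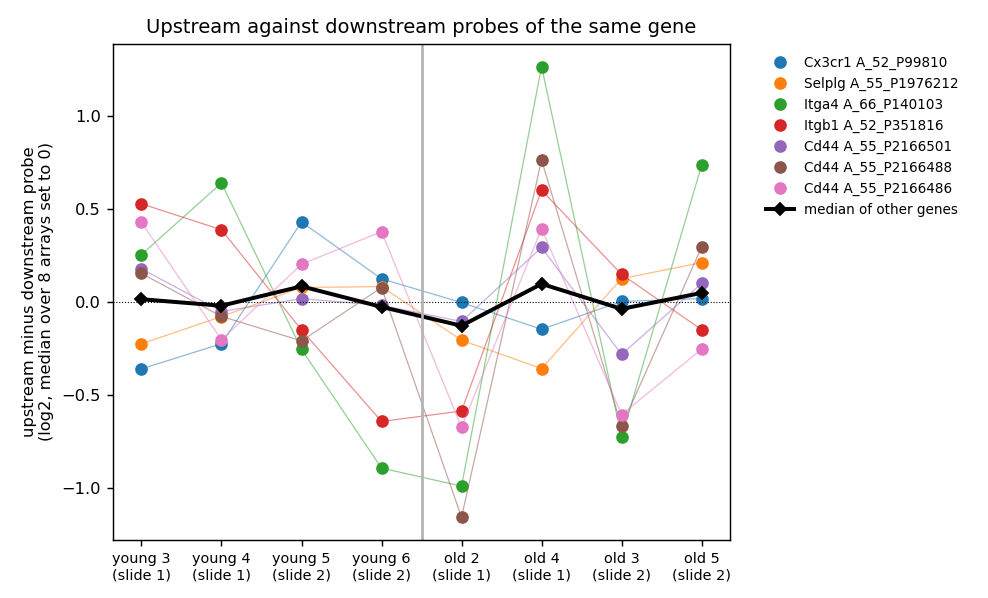
Upstream minus downstream probe of the same gene on each array (y axis, log2, median over the 8 arrays set to 0; x axis, arrays by age and slide) for Cx3cr1, Selplg, Itga4, Itgb1 and Cd44, named by the upstream probe, and the median over 3870 other genes as a thick line. The Itga4, Itgb1 and Cd44 points are high on old 4 and low on old 2, and the median of the other genes has its highest value, 0.10, and its lowest, -0.13, on the same arrays. The Itga4 and Itgb1 points are also low on young 6, where this median is -0.03.

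The spread within an age differed among the probes of the set. Its pooled SD ranged from 0.111 log2 units, at the brightest Cd44 probe, to 0.998 at the upstream Itga4 probe, with a median of 0.340, beside a median of 0.354 over all tested probes. Among the 36 pairs of members, compared over the 8 arrays at their brightest probes, 0 passed an adjusted p under 0.05 and 4 had an unadjusted exact permutation p under 0.05. Of these, 3 include Ccr2, Selplg or Itga4, whose ages form separate clusters of 4 arrays, so that no r over all arrays is given. After the mean of each age was subtracted, r was -0.62 for Cxcr2 and Itga4, 0.48 for Ccr2 and Selplg and 0.54 for Selplg and Cd44, as a description with no test. The remaining pair was Cxcr4 and Cxcr2, with a Pearson r of -0.87 (exact permutation p = 0.0078, adjusted p = 0.112) and a Spearman rho of -0.79 (exact permutation p = 0.0279, adjusted p = 0.201). Without the 2 arrays farthest from the median of Cxcr4, r was -0.78, and after the mean of each age was subtracted, it was -0.72.

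Genes around the receptors were described from lists of 7 kinds. No gene of these lists was called by limma, against 48 called higher and 10 called lower among all 23155 tested genes, of which 8.10% had an unadjusted p under 0.05 at a probe and 4.86% had no overlap of the ages at their brightest probe. Of the ligands of the member chemokine receptors, 8 of 12 were tested, 4 had an unadjusted p under 0.05, all with a higher mean in old CMPs, and the median log2 difference was 0.66. Ppbp, a Cxcr2 ligand that platelets release and that is also in the megakaryocyte list, had values between -3.76 and -2.26 on the young and between -1.83 and -0.27 on the old arrays, a log2 difference of 1.77 ± 0.45 (SE; limma adjusted p = 0.235). Cxcl3, another Cxcr2 ligand, differed by 1.49 ± 0.44 (SE; limma adjusted p = 0.364), with young values from -3.17 to -1.44 and old values from -1.29 to -0.36. Ppbp and Cxcl3 had higher means in old CMPs beside that of their receptor Cxcr2, and both probes lay below the 75th percentile on every array.

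Of the other chemokine receptors, 10 of 20 were tested, 2 had an unadjusted p under 0.05 with a higher and 1 with a lower mean in old CMPs, and 3 had no overlap of the ages. Ccr7, which guides lymphocytes and dendritic cells to lymph nodes, had a log2 difference of -1.38 ± 0.36 (SE; limma adjusted p = 0.256), with young values from -1.57 to 0.28 and old values from -2.58 to -1.83. Darc (Ackr1), a chemokine-binding receptor that does not signal, differed by 1.25 ± 0.24 (SE; limma adjusted p = 0.107). It was called when young 6 was left out, with a log2 difference of 1.46 and an adjusted p of 0.0399 by limma. The median of this list was -0.11.

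Of the integrin subunits outside the set, 17 of 23 were tested, 5 with an unadjusted p under 0.05 and a higher mean in old CMPs and 2 with a lower one. Itga2b, the alpha subunit of the platelet fibrinogen receptor and also in the megakaryocyte list, had a log2 difference of 1.22 ± 0.32 (SE; limma adjusted p = 0.272). Its values lay between 2.14 and 3.23 on the young and between 3.63 and 4.85 on the old arrays. Itgb5, a beta subunit of vitronectin receptors, differed by -1.28 ± 0.24 (SE; limma adjusted p = 0.098), with young values from 1.69 to 2.49 and old values from 0.60 to 1.19, and normexp background correction brought its adjusted p to 0.0196. Among 18 genes of integrin activation, 16 were tested, 2 had an unadjusted p under 0.05, both with a higher mean, and Rap1b, a small GTPase that switches integrins on, was the gene without overlap (log2 difference 0.57 ± 0.19, SE; limma adjusted p = 0.484). The median log2 difference was 0.25 for the other integrin subunits and 0.11 for integrin activation.

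Among selectins and the enzymes that make their ligands, 17 of 18 genes were tested, 3 had an unadjusted p under 0.05 with a higher and 1 with a lower mean, and 3 had no overlap of the ages. Selp, the selectin of platelets and endothelium that binds the Selplg product and that is also in the megakaryocyte list, had a log2 difference of 1.22 ± 0.22 (SE; limma adjusted p = 0.095), from -0.80 to -0.10 on the young and from 0.59 to 1.23 on the old arrays. With normexp background correction, Selp passed with an adjusted p of 0.0369. The median of the list was -0.01.

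In the list of matrix and counter-receptors, 11 of 16 genes were tested, 2 had an unadjusted p under 0.05, both with a higher mean, and Icam4, an adhesion molecule of red cell precursors that binds integrins, was the gene without overlap (log2 difference 0.66 ± 0.19, SE; limma adjusted p = 0.362). All 27 other genes of marrow retention were tested, 7 with an unadjusted p under 0.05 and a higher mean and 2 with a lower one, and 7 had no overlap of the ages. Esam, an adhesion molecule of endothelium, platelets and stem cells, differed by 1.23 ± 0.28 (SE; limma adjusted p = 0.168) and was called with normexp background correction (adjusted p = 0.0451). Jam2, a junctional adhesion molecule, differed by 1.10 ± 0.24 (SE; limma adjusted p = 0.157) at its brightest probe, whereas its other tested probes differed by 0.84 ± 0.47 and 0.16 ± 0.23 (SE; limma adjusted p = 0.942 and 0.998). The medians were 0.06 and 0.07.

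**Figure D5:**
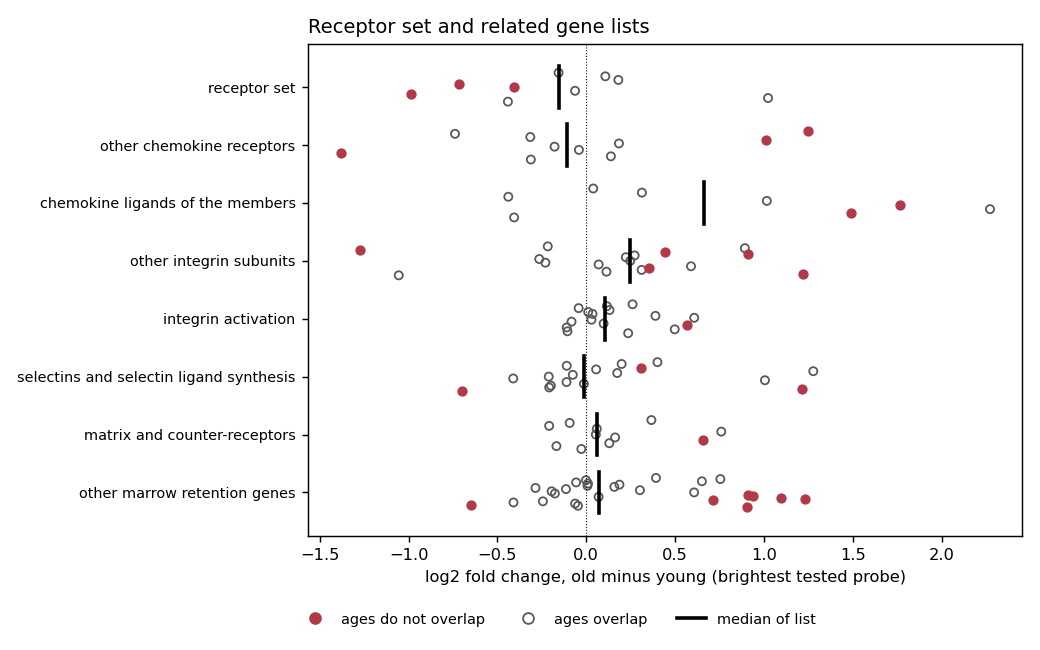
Log2 fold change of old over young CMPs (x axis) at the brightest tested probe of each gene, by list (y axis), filled where the ages do not overlap, with the median of each list as a bar. The receptor set has 3 filled points, all below 0, and 9 genes in all, with a median of -0.16, and the ligands of its chemokine receptors have a median of 0.66.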

How the data were processed

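The authors labelled RNA with 1 dye and read the scans with Agilent Feature Extraction 10.7.3.1. The deposited files hold linear intensities per spot, corrected for background by that software, with probe positions in mm9 and gene names from the array's design. A further deposited table, made by the authors, holds log2 values that are shifted to the 75th percentile and centred, in which a line can join several probes. It was used as an alternative, and all its columns matched an array. From the intensities, log2(signal) minus the 75th percentile of each array was computed, leaving out outlier spots, of which the set had 0. Tested probes were those well above background on 4 or more of the 8 arrays whatever their age, fitted in R 4.3.3 with limma 3.58.1 (lmFit, eBayes) and Benjamini-Hochberg adjustment. The fit held age alone. Permutation tests were exact and two-sided. On simulated data for 4 and 4 arrays and 33472 probes, 17.9% of probes changed 2-fold, 73.1% changed 4-fold and 92.4% changed 8-fold were recovered. Named genes were all members, called genes of each pathway list and the 2 with the largest difference among those without overlap, marker genes beside a member, and for each member the 3 genes most like it. A gene of the selectin list that meets this rule is not reported here. A gene was represented by its tested probe with the highest mean. The members and lists were chosen with earlier results of these data known. The number of arrays limits the precision.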

Additional observations from a re-analysis of the deposited data

Results flagged for a closer look

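Each of the 16 receptor probes was searched for an array far from the other 3 of its age, in 32 groups of 4 arrays, of which chance alone marks about 1 in 20. The search found 1. At the Cx3cr1 probe A_52_P99810, old 4 read 0.06, whereas old 2, old 3 and old 5 read 0.48, 0.48 and 0.42. The gap between old 4 and the nearest old array was 0.853 of the whole range of the old arrays. The brightest Cx3cr1 probe, A_55_P2007964, was also lowest on old 4, at 2.74.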

How the results depend on the processing

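No adjusted test called a receptor gene under any alternative, and the methods' t-test without adjustment called 2. The lowest adjusted p over these alternatives was 0.106 for Ccr2 and 0.181 for Cxcr2, whose log2 differences ranged from -1.21 to -0.84 and from 0.84 to 1.25. Cxcr4 (-0.63 to -0.25), Selplg (-0.48 to -0.29), Itga4 (-1.01 to -0.42) and Cd44 (-0.33 to -0.04) kept their sign under all alternatives. These ranges hold for the brightest probe, or for the joined probes where an alternative joins them. The Cd44 probe A_55_P2166488 turned positive with normexp (0.0009), without old 2 (0.022) and on the 6 arrays numbered 3 to 5 (0.045). The Itga4 probe A_66_P140103 did so within slide 2 (0.15). Both probes were negative otherwise. The difference of Cx3cr1 became 0.055 with the median shift, and on leaving out arrays it ranged from -0.124 (without young 3) to 0.0047 (without young 4). That of Itgb1 became -0.0095 with array weights, and it was -0.099 within slide 1 and 0.314 within slide 2. On leaving out arrays, the difference of Itgb1 ranged from -0.060 (without old 5) to 0.220 (without old 3). The median shift moved the median over all probes by 0.12. The count of called genes, 58, became 96 with normexp, 92 with an intensity trend and robust variances, 108 with array weights, 38 and 26 with all 8 arrays above background or no filter, 36 with slide as a block, and 0 and 949 by the methods' t-test with and without adjustment. Leaving out each array in turn gave 25 (without old 3) to 40 genes (without young 6), and 38 or fewer for every array but young 6. With quantile normalization 53 genes were higher and 3 lower, against 48 and 10. In the pathway lists, 3 genes were called with normexp and 0 to 1 on leaving out an array. The replicate block on numbers 3 to 5 gave 13 called genes and 16 without it on the same 6 arrays. Same-numbered arrays had correlations of -0.09, -0.14 and 0.15, within the range of -0.26 to 0.37 for young and old arrays of different numbers. The sample labels name no pairs, and these few correlations cannot exclude a pairing. The causes were not tested.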

Other observations

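For each member, the 3 genes whose brightest probes followed it most closely over the 8 arrays were listed by Pearson r among 23120 genes, as a description with no test. Of the 27 names, 19 are gene symbols and 8 are probe IDs or transcribed regions. For Cxcr4 they were Il10rb, a subunit of the interleukin-10 receptor (r = 0.98), Snx8 (0.97) and the gate gene Fcgr2b (0.95). Ccr2 was followed by Sh3tc1 (0.98) and Cib2 (0.97), and Cxcr2 by Fxyd5, Muc13 (both 0.96) and Mrpl42 (0.95). For Itga4 they were Golgb1, a Golgi protein (0.99), Nlrc4, an inflammasome receptor (0.97), and Plekhh1 (0.96). Selplg was followed by 1700019O17Rik (0.95) and Cyp4f18 (0.94), Cx3cr1 by Vps72, Wdr46 and Eps8 (0.98, 0.97 and 0.97), Itga5 by Zfp553 (0.98) and Itgb1 by Sep15 and Prr15 (0.98 and 0.96). The names most like Cd44 were transcribed regions without a symbol. The highest r of each of the 9 members lay between 0.95 and 0.99. The 3 names of each member were picked as the highest of 23120 values of r over only 8 arrays. Values this high can be found among so many genes without any relation, and the r to be expected by chance was not computed. The ages of Ccr2, Selplg and Itga4 form separate clusters, so their r over all arrays may largely reflect the difference between the ages.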
